A study of Homo sapiens with 6 samples.

Results

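The short arm of human chromosome 4 carries, from band 4p16 into 4p15, the 59 genes described here, from GRK4 and HTT on the telomere side to LCORL towards the centromere. Each was looked up by its symbol among the probe sets that name 1 gene alone, and 57 of the 59 were measured, out of 19775 genes in all. CPZ, whose probe set also carries another symbol, and WDR1 were not analysed here. The genes were selected from their position and with the values of these same arrays known. Every difference between the lines is therefore given as a description, with no p-value, and no count over these genes is support for a shared change.

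The samples are PC-3/Mc (3 arrays) and PC-3/S (3 arrays), both sublines of PC-3, an established human prostate cancer cell line derived from a metastasis in bone. The study is about the epithelial-mesenchymal transition and the attributes of tumor-initiating cells, and the comparison asks which transcripts separate the sublines. No treatment or genetic change is named in the labels, and each subline is 1 line. The labels call the 3 arrays of a line biological replicates without saying whether these were separate cultures, so part of the spread between arrays may be technical. Values are log2 signals, so a difference of 1 is a doubling, and each is PC-3/Mc minus PC-3/S. Unless stated otherwise, means carry the SD of 3 arrays and differences the SE of the fit to 3 arrays per line.

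Genes that lie side by side on a chromosome share its copy number and often its chromatin surroundings, while their products mostly do unrelated work. The 4p16-p15 genes are of this mixed kind: they include huntingtin, homeobox factors, cilium and Hedgehog components, mitochondrial, peroxisomal and lysosomal proteins, and a condensin subunit. Neither DNA copy number nor chromatin was analysed here. The arrays average over many cells, so that fewer expressing cells and less RNA per cell cannot be told apart.

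Array medians lay between 4.98 and 5.09, and correlations over probe sets were 0.995 to 0.997 within a line and 0.949 to 0.953 between the lines. The simple-epithelium keratins KRT8 and KRT18 were bright in both lines, KRT8 at 9.81 in PC-3/Mc against 8.78 in PC-3/S and KRT18 at 12.48 in PC-3/Mc against 11.32 in PC-3/S. CTNNA1, known to be deleted in PC-3, read at most 5.18 on its 5 probe sets, and readings up to that value are treated as possibly background. The brightest probe set of the prostate antigen gene KLK3, which PC-3 is known to lack, gave 6.39 in PC-3/Mc against 6.73 in PC-3/S. A reading somewhat above 5.18 is therefore not certain to be expression either. Of the markers of other cells, PTPRC, CD3E and VWF were under 5.18 in both lines. The fibroblast marker DCN averaged 4.89 in PC-3/Mc against 5.33 in PC-3/S, and the brightest of 5 probe sets of the endothelial marker PECAM1 7.18 in PC-3/Mc against 6.58 in PC-3/S. The part of these other-cell readings in the differences was not tested.

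Most of the 4p16-p15 genes at or above the median level of all genes were higher in PC-3/Mc, many of them by close to a doubling. That level, 5.98, lies under the KLK3 means of 6.39 and 6.73, so reaching it is not certain to be expression. A gene is called here when its adjusted p in limma, with Benjamini-Hochberg adjustment over all 19775 genes, is under 0.05. Of the 57 measured genes 36 were called, beside 45.9% of all genes. They divide into 29 higher in PC-3/Mc and 7 lower, with 21 not called, beside 23.2% called higher and 22.7% called lower among all genes. Their median difference was 0.22, against -0.03 over all genes. Every PC-3/Mc array lay above every PC-3/S array for 29 of the 57, beside 26.3% of all genes. Every PC-3/Mc array lay below every PC-3/S array for another 8, beside 5298 of all 19775 genes. The calls of TADA2B, CC2D2A, WFS1, NSG1, SORCS2, BST1 and C1QTNF7 were lost under at least 1 of the other settings tried. EVC2, ZNF518B and FBXL5 were called lower under at least 1 of them, as were CLNK and RGS12, and TRMT44, HS3ST1 and ADRA2C were called higher.

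The counts differed with the level of the gene. The median level of all genes was 5.98, and 34 of the 57 reached it in their mean over the 6 arrays; the others are called dim. Among those 34, 27 were called higher, 2 lower and 5 neither, beside 38.9% higher and 31.3% lower among the 9888 genes of that level in the genome. Their median difference was 0.87, against 0.05 for all genes of that level. Differences of at least 1 and called were found for 13 of the 34, all higher. Of the 9888 genes of that level, 9.65% were called and higher by at least 1, and 811 were called and lower by at least 1. The 23 dimmer members gave 2 higher, 5 lower and 16 neither, beside 7.48% and 14.2% among all dimmer genes, with a median of -0.08 against -0.05 for those. PPP2R2C, GRK4, ZBTB49 and SH3TC1 reached the median level only through PC-3/Mc. Of these, only PPP2R2C read under 5.18 in PC-3/S, where GRK4 averaged 5.95, ZBTB49 5.89 and SH3TC1 5.92. PPP2R2C, GRK4 and ZBTB49 are among the 27 called higher, and SH3TC1 was not called. AFAP1 and HTRA3 averaged above the median level only in PC-3/S and count as dim. AFAP1 was called lower and HTRA3 was not called.

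The median over the 34 brighter members was 8.57, 8.65 and 8.40 on the PC-3/Mc arrays, against 7.51, 7.42 and 7.61 on those of PC-3/S. The same median over all genes ran the other way by a small amount, at 5.89, 5.88 and 5.93 in PC-3/Mc, with PC-3/S at 6.0, 6.01 and 5.97. All 3 PC-3/Mc medians over these 34 genes thus stood above all 3 of PC-3/S. This holds for the medians and not for each gene, since 2 of the 34 were called lower and 5 were not called.

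**Figure D1:**
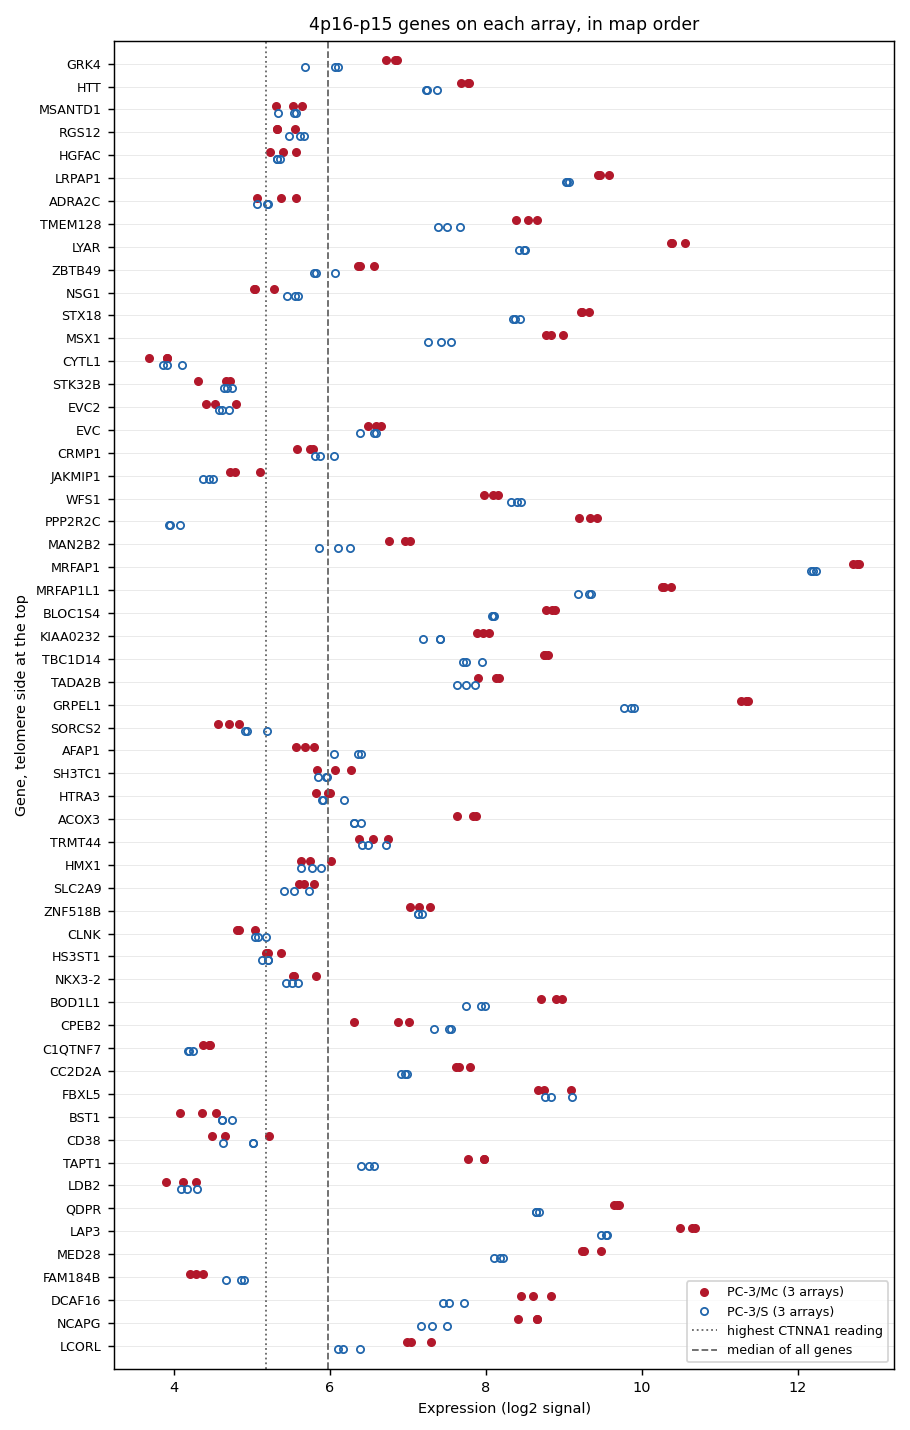
Log2 signal (x axis) of the 57 measured 4p16-p15 genes (rows, telomere side at the top) on each array, PC-3/Mc as filled red points above PC-3/S as open blue points. The dashed line is the median level of all genes (5.98) and the dotted line the highest CTNNA1 reading (5.18). To the right of the dashed line the red points mostly lie to the right of the blue ones, and to its left the groups mostly overlap.

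The telomere-side block runs from GRK4 and HTT to STX18, 12 genes with a median difference of 0.46. Of these, 7 were called higher and 1 lower, beside 23.2% and 22.7% of all genes. LYAR, a nucleolar protein of growing cells, read 10.55, 10.38 and 10.37 on the PC-3/Mc arrays, against 8.48, 8.42 and 8.50 on the PC-3/S arrays. The groups were far apart, with a difference of 1.96 ± 0.08, or 3.90-fold. TMEM128, a transmembrane protein, was at 8.54, 8.66 and 8.39 in PC-3/Mc, with PC-3/S at 7.50, 7.38 and 7.66. It was 2.02-fold higher in PC-3/Mc without overlap (1.01 ± 0.10). STX18, a SNARE protein of the endoplasmic reticulum, differed by 0.87 ± 0.08, and GRK4, a kinase of G protein-coupled receptors, by 0.86 ± 0.11. Smaller differences were those of the zinc finger gene ZBTB49 (0.55 ± 0.10), of HTT, which encodes huntingtin (0.46 ± 0.08), and of LRPAP1, a chaperone of lipoprotein receptors (0.45 ± 0.08).

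These 7 are also the 7 brighter genes of the block, and none of them overlapped between the lines on the probe set used. The other bright probe set of HTT overlapped and was not called (0.22). The other 5 read under the median level in both lines. They were the DNA-binding-domain gene MSANTD1 (0.01), RGS12, a regulator of G protein signalling (-0.19), HGFAC, the protease that activates hepatocyte growth factor (0.06), the adrenergic receptor gene ADRA2C (0.18), and NSG1, a neuronal endosome protein. NSG1 was the one called lower, at 5.11 ± 0.14 in PC-3/Mc against 5.53 ± 0.08 in PC-3/S, and another of its 3 probe sets, under 5.18 in both lines, was called higher (0.41).

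From MSX1 to GRPEL1 the block holds 17 genes with a median difference of 0.55. It had 11 called higher and 1 lower, beside 23.2% and 22.7% of all genes. PPP2R2C, a regulatory subunit of protein phosphatase 2A, read 9.33, 9.42 and 9.20 on the PC-3/Mc arrays, against 3.95, 4.08 and 3.93 on the PC-3/S arrays. PC-3/S was in the range of background there, so PPP2R2C was at least 17.6-fold higher, counted against the 5.18 reading. MSX1, a homeobox transcription factor, was at 8.98, 8.84 and 8.77 in PC-3/Mc, with PC-3/S at 7.26, 7.43 and 7.55, a difference of 1.45 ± 0.10. Its other probe set, under 5.18 in both lines, gave 0.28, and the mean of both gave 0.86. GRPEL1, the nucleotide exchange factor of the mitochondrial heat shock chaperone, gave 11.33, 11.27 and 11.36 in PC-3/Mc against 9.89, 9.85 and 9.77 in PC-3/S. Its PC-3/Mc arrays lay 2.79-fold above those of PC-3/S (1.48 ± 0.08), with narrow spread in both lines. MRFAP1L1, a relative of MRFAP1, was at 10.29, 10.37 and 10.25 in PC-3/Mc, with PC-3/S at 9.34, 9.18 and 9.33, which is 2.03-fold higher.

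Between PPP2R2C and GRPEL1 every measured member was called higher, 9 genes in a row with both ends counted. Besides those above they were the autophagy regulator TBC1D14 (0.97 ± 0.09), the mannosidase MAN2B2 (0.84 ± 0.11), BLOC1S4, a subunit of the complex that makes lysosome-related organelles (0.74 ± 0.08), KIAA0232 (0.62 ± 0.09), MRFAP1 itself (0.55 ± 0.07) and TADA2B, an adaptor of histone acetylation (0.33 ± 0.10). MRFAP1, at 12.74 ± 0.04 in PC-3/Mc against 12.20 ± 0.03 in PC-3/S, was the brightest of the 57. None of the 9 overlapped between the lines on the probe set used. Of all genes, 26.3% had every PC-3/Mc array above every PC-3/S array, and 23.2% were called higher. The other bright probe set of TADA2B overlapped and was not called (-0.10). The row counts listed genes only.

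The genes between MSX1 and PPP2R2C did not share that direction. WFS1, the endoplasmic reticulum protein wolframin, was bright and called lower, at 8.08, 7.97 and 8.15 in PC-3/Mc against 8.40, 8.32 and 8.45 in PC-3/S (-0.32 ± 0.08). Its other bright probe set gave -0.03 and was not called. EVC, a ciliary component of Hedgehog signalling, overlapped between the lines (0.06), as did the dim EVC2, which encodes its partner (-0.05). The cytokine-like gene CYTL1 (-0.12), the kinase STK32B (-0.13) and the semaphorin-response gene CRMP1 (-0.21) were dim and not called. JAKMIP1 was called higher (0.43) but read under 5.18 in both lines.

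**Figure D2:**
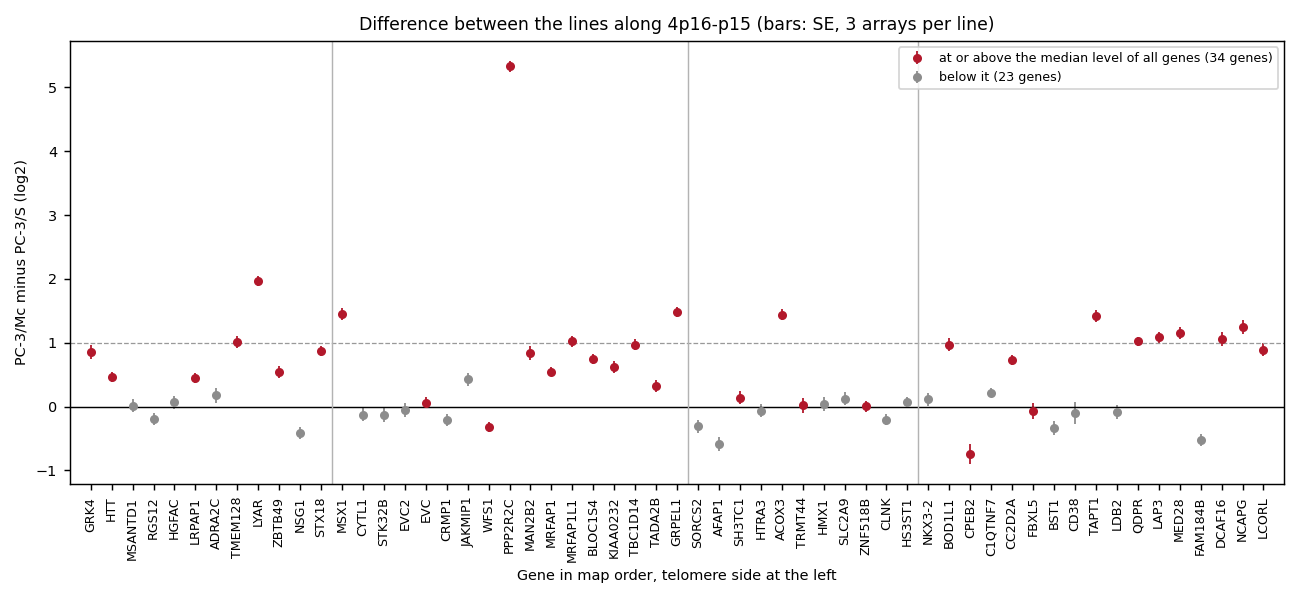
Difference PC-3/Mc minus PC-3/S (y axis, log2) of the 57 measured genes in map order (x axis), with SE bars; red points reached the median level of all genes and grey points did not. Vertical lines part the 4 blocks and the dashed line marks a difference of 1. Red points lie above 0 for 31 of 34 genes, with WFS1, CPEB2 and FBXL5 below it, and in the third block only ACOX3 lies clearly above 0. Grey points lie between -0.59 (AFAP1) and 0.43 (JAKMIP1). PPP2R2C is drawn at 5.33, which is not an exact difference because its PC-3/S arrays read under 5.18.

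In the block from SORCS2 to HS3ST1 the 11 measured genes had a median difference of 0.02. Beside 23.2% and 22.7% of all genes, 1 was called higher and 2 lower. The higher one was ACOX3, a peroxisomal acyl-CoA oxidase, which read 7.84, 7.87 and 7.63 on the PC-3/Mc arrays, against 6.31, 6.31 and 6.40 on the PC-3/S arrays. Its groups were 2.71-fold apart (1.44 ± 0.09) and did not overlap. Its PC-3/S mean, 6.34, lay under both KLK3 means, so it may be background and the fold a lower bound. The other 3 brighter genes overlapped between the lines: the tRNA methyltransferase gene TRMT44 (0.02), the zinc finger gene ZNF518B (0.01 ± 0.09) and SH3TC1 (0.14). Only 4 of the 11 genes reached the median level, against 7 of 12 and 12 of 17 in the blocks before it and 11 of 17 in the one after it.

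AFAP1, an actin filament-associated protein, was called lower at 5.68 ± 0.11 in PC-3/Mc against 6.27 ± 0.19 in PC-3/S (-0.59 ± 0.11), close to the median level of all genes. SORCS2, a sorting receptor, was called lower as well (-0.31), though both lines averaged under 5.18. The serine protease HTRA3 (-0.07), the homeobox gene HMX1 (0.04), the urate transporter SLC2A9 (0.13), the immune adaptor CLNK (-0.20) and HS3ST1, a heparan sulfate sulfotransferase (0.07), were dim, overlapped and were not called on the probe set used. The other probe set of SLC2A9 was called lower (-0.38), at 5.35 in PC-3/Mc against 5.73 in PC-3/S. A dimmer probe set of HS3ST1, under 5.18 in both lines, was called higher (0.70).

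Towards the centromere, from NKX3-2 to LCORL, 17 genes had a median difference of 0.73. Of these, 10 were called higher and 3 lower, beside 23.2% and 22.7% of all genes. The median depended on the choice of probe sets and was 0.35 with all probe sets of a gene averaged and 0.29 without the probe sets of the _x_at and _s_at kinds. TAPT1, a membrane protein linked in mice to skeletal patterning, read 7.98, 7.97 and 7.77 on the PC-3/Mc arrays, against 6.57, 6.40 and 6.50 on the PC-3/S arrays, a 2.67-fold difference (1.42 ± 0.09). NCAPG, a subunit of the condensin complex of mitotic chromosomes, was at 8.66, 8.65 and 8.41 in PC-3/Mc, with PC-3/S at 7.16, 7.31 and 7.50 (1.25 ± 0.11). Both pairs of groups were clearly apart. MED28, a subunit of the transcriptional Mediator, gave 9.47, 9.26 and 9.23 in PC-3/Mc against 8.22, 8.10 and 8.18 in PC-3/S, a difference of 1.15 ± 0.09. LAP3, the cytosolic leucine aminopeptidase, was at 10.68, 10.64 and 10.48 in PC-3/Mc, with PC-3/S at 9.47, 9.54 and 9.53 (1.08 ± 0.08).

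DCAF16, a substrate receptor of a cullin ubiquitin ligase, read 8.60, 8.83 and 8.45 on the PC-3/Mc arrays, against 7.53, 7.45 and 7.72 on the PC-3/S arrays, with a difference of 1.06 ± 0.11. QDPR, which regenerates the cofactor tetrahydrobiopterin, gave 9.68, 9.64 and 9.70 in PC-3/Mc against 8.64, 8.67 and 8.64 in PC-3/S (1.02 ± 0.07). All arrays of PC-3/Mc exceeded all of PC-3/S for both. BOD1L1, which protects stalled replication forks (0.97 ± 0.10), the transcription factor gene LCORL (0.89 ± 0.11) and CC2D2A, of the ciliary transition zone (0.73 ± 0.08), followed in size.

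Against this direction CPEB2, a regulator of mRNA polyadenylation and translation, read 6.87, 7.01 and 6.30 on the PC-3/Mc arrays, against 7.55, 7.33 and 7.52 on the PC-3/S arrays. It was called lower (-0.74 ± 0.16) with the widest spread of the brighter PC-3/Mc values, the third array being the lowest. FBXL5, the iron-sensing subunit of a ubiquitin ligase, overlapped between the lines (-0.07) at 8.83 ± 0.23 in PC-3/Mc against 8.90 ± 0.18 in PC-3/S. The 6 dim genes of the block gave FAM184B (-0.52) and BST1 (-0.33), a cyclase of nicotinamide nucleotides, as called lower, and C1QTNF7 (0.22) as called higher, each under 5.18 in both lines. The related cyclase CD38 (-0.10), the homeobox gene NKX3-2 (0.11) and the LIM-binding factor gene LDB2 (-0.08) were not called.

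Each gene above was represented by its brightest probe set, and 34 of the 57 had more than 1. In all, 130 probe sets named one of these genes alone. Of the 49 that reached the median level of all genes, 43 had a positive difference, 37 were called higher and 3 lower. Of the 81 dimmer ones 19 were called higher and 13 lower. Of all probe sets with 1 symbol, 41.7% were called in either direction. That share pools bright and dim ones, so it is not a reference for either level alone. Counted by gene, 38.9% of all genes at or above the median level were called higher and 31.3% lower. Among all dimmer genes these shares were 7.48% and 14.2%. Where a gene had more than 1 bright probe set, these had the same sign in 12 of 13 genes. The exception was TADA2B, at 0.33 on the brighter and -0.10 on the other. For HTT and WFS1 the other bright probe set had the same sign but was not called, at 0.22 and -0.03. With dim probe sets counted, both signs also occurred in RGS12, NSG1, EVC, SLC2A9, ZNF518B, CLNK, HS3ST1, CPEB2, C1QTNF7, TAPT1 and MED28, and in NSG1, TAPT1 and MED28 some were called higher and others lower.

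The second probe set gave 2.29 beside 1.96 for LYAR, 1.37 beside 1.25 for NCAPG, 1.12 beside 1.48 for GRPEL1 and 1.06 beside 1.44 for ACOX3. The 4 bright probe sets of MED28 ran from 0.56 to 1.37, and the 2 of TAPT1 were at 0.78 and 1.42. Averaged over all probe sets, dim ones included, the difference was 0.41 for MED28, 0.35 for TAPT1, 0.63 for QDPR and 1.44 for PPP2R2C. Dim probe sets of MED28 and TAPT1 were also called lower, at -0.56 and -0.36 for MED28 and at -0.27 for TAPT1, each at a mean under 5.18 in both lines. For PPP2R2C the other 5 probe sets differed by 0.02 to 1.87, all positive and dimmer than the one used, and PC-3/S read under 5.18 on each.

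Some other probe sets are singled out here after their values were seen. BOD1L1 was called higher on both of its dim probe sets, whose PC-3/S means were under 5.18, so the sizes were not measured there. The 2 dimmer probe sets of ZNF518B were called lower, at -1.09 and -0.30, beside 0.01 for the brightest, and the first of these averaged under 5.18 in PC-3/Mc. The other bright probe set of FBXL5 was called lower at -0.56, with means of 7.31 in PC-3/Mc against 7.88 in PC-3/S. A dimmer probe set of CPEB2, at -0.77, had the direction of the one used (-0.74).

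**Figure D3:**
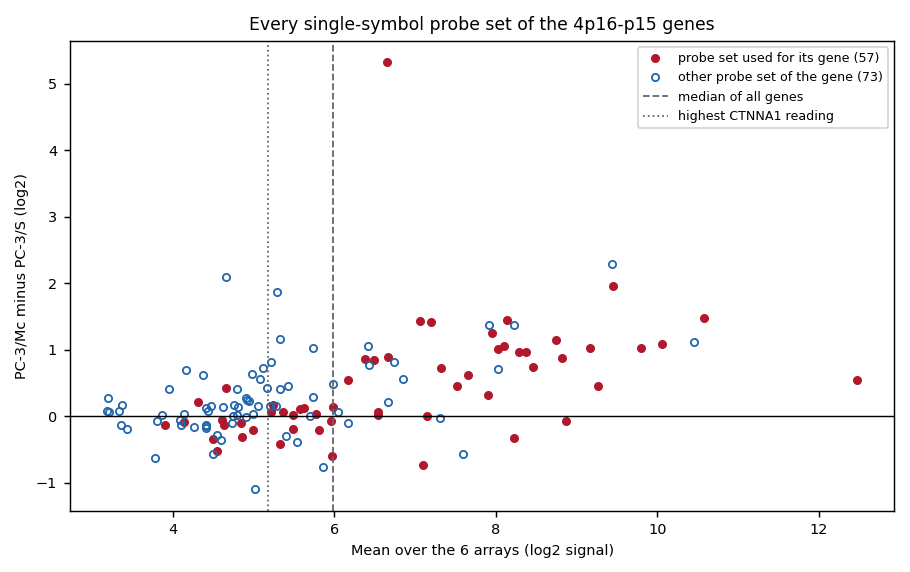
Difference PC-3/Mc minus PC-3/S (y axis, log2) of all 130 single-symbol probe sets of the 57 genes against their mean over the 6 arrays (x axis, log2 signal); filled red points are the 57 used for their genes and open blue points the others. Right of the dashed line at 5.98, 43 of 49 lie above 0, and left of it the points scatter around 0.

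In 4 pairs, members start head to head, on opposite strands with their starts at most 5000 bases apart. For 3 of them the RefSeq promoter window (250 bases before to 50 after a start, assembly GRCh38.p14) of the plus-strand gene holds the start of its neighbour. These windows are shown because they let the transcripts that leave one short stretch in opposite directions be set side by side. Each is printed on the plus strand, 5′ to 3′, for ZBTB49 (chr4:4290001-4290300), TRMT44 (chr4:8440527-8440826) and NCAPG (chr4:17810729-17811028). Capitals mark the bases from the start of the minus-strand gene to the start of the plus-strand gene, both included.
ZBTB49 and LYAR: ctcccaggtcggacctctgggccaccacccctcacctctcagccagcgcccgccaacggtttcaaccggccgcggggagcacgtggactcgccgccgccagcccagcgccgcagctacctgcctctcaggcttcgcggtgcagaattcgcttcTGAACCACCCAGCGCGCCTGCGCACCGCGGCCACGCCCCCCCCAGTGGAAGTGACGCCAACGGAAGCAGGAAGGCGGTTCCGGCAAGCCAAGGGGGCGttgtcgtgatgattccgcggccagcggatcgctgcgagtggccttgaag
TRMT44 and ACOX3: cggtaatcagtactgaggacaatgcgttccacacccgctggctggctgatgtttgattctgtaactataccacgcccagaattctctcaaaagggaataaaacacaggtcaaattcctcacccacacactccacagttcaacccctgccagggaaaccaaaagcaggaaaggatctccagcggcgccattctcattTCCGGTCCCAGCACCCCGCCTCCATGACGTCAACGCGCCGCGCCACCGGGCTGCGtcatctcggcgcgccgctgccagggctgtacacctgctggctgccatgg
NCAPG and DCAF16: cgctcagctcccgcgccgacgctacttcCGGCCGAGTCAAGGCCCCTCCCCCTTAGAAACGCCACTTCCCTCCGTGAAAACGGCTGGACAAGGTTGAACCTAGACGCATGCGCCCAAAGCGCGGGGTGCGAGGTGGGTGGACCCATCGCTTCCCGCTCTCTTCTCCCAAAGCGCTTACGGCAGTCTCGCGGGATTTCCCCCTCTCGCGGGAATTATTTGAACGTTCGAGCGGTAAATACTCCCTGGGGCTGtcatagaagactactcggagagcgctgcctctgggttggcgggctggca

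The 3 pairs differed in how alike their members were. DCAF16 and NCAPG, whose starts are 222 bases apart, differed between the lines by 1.06 and 1.25. LYAR and ZBTB49, 97 bases apart, were both called higher, by 1.96 and 0.55. ACOX3 and TRMT44 have the closest starts, 54 bases apart, and only ACOX3 was called, with 1.44 against 0.02 ± 0.11 for TRMT44. TRMT44 read 6.74, 6.55 and 6.37 on the PC-3/Mc arrays, against 6.48, 6.71 and 6.41 on the PC-3/S arrays, so its groups overlapped. Another, dimmer probe set of TRMT44 was called higher at 0.41. In the fourth pair, EVC2 and EVC, 2642 bases apart, neither gene was called. The other probe set of EVC2 was called lower (-0.62), under 5.18 in both lines.

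**Figure D4:**
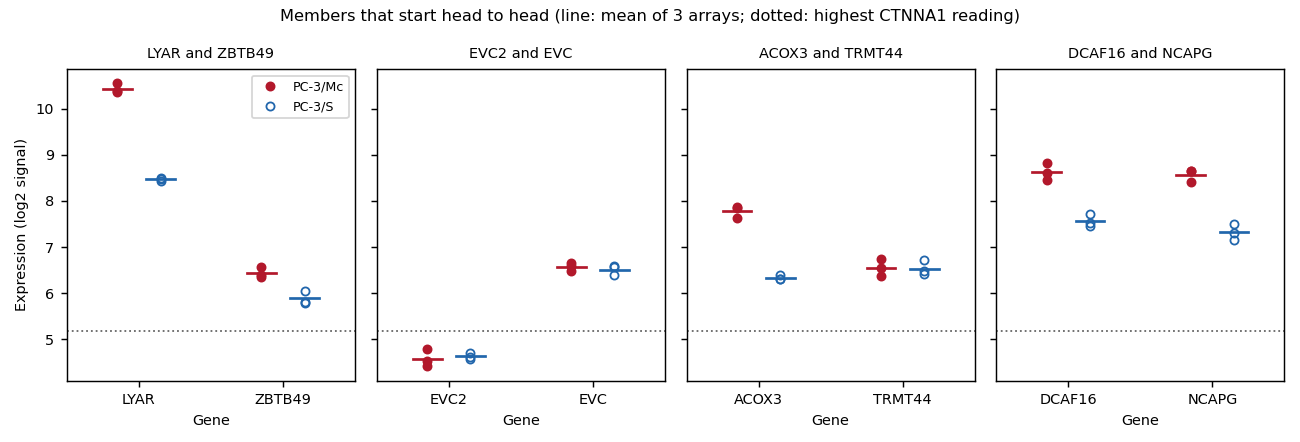
Log2 signal (y axis) of both genes of each head-to-head pair on the 3 PC-3/Mc arrays (filled red, left) and the 3 PC-3/S arrays (open blue, right), with means as short lines and the 5.18 reading dotted. PC-3/Mc lies wholly above PC-3/S for both genes of the LYAR and the DCAF16 pairs, for ACOX3 but not TRMT44, and for neither EVC2 nor EVC.

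Promoter windows were found for 50 of the 57 genes, 80 windows in all. Counted per 300 bases and averaged over a gene's windows, CG dinucleotides had a median of 31.0 in the brighter members called higher and 33.0 in the 7 other brighter members, against 26.0 for all genes at or above the median level. The dimmer members had 21.0, against 12.0 for all dimmer genes. On either strand, the E-box CACGTG stood in 11 of the 80 windows (13.8%), beside 7.26% of the 35116 windows of all genes. The GC-box core GGGCGG stood in 58.8% of the windows beside 45.0% of all, and TATAAA in 2.5% beside 11.5%. Of the windows printed above, that of ZBTB49 holds CACGTG, and none holds TATAAA or GGGCGG. Windows of 1 gene can overlap, and a match is only a run of letters.

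Other genes lie between HTT and LCORL and are not on the list. Of 29 such measured genes, 12 of them protein coding, 4 were called higher, 2 lower and 23 neither, with a median difference of 0.01, and 18 read under 5.18 in both lines. Only 7 reached the median level of all genes, and these had a median difference of -0.17, with 3 called higher and 4 not called. S100P, a calcium-binding protein found in many carcinomas, which lies between MRFAP1 and MRFAP1L1, read 9.28, 9.11 and 9.27 on the PC-3/Mc arrays, against 6.16, 6.16 and 6.05 on the PC-3/S arrays. It was 8.54-fold higher (3.09 ± 0.08), the next largest difference in the stretch after PPP2R2C. Its PC-3/S mean, 6.13, lay under both KLK3 means, so it may be background and the fold a lower bound. MRFAP1L2, in the same row of genes, was at 9.15, 9.06 and 8.97 in PC-3/Mc, with PC-3/S at 7.69, 7.68 and 7.89 (1.31 ± 0.09). The RAB GTPase gene RAB28, just before NKX3-2, gave 8.97, 9.0 and 8.67 in PC-3/Mc against 7.79, 7.83 and 7.80 in PC-3/S (1.07 ± 0.10).

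The groups of all 3 were apart. The other 4 of that level were not called: FGFBP1, a carrier of fibroblast growth factors (-0.17), FAM200B (-0.20), LINC02482 (-0.18) and LOC389199 (-0.25). PROM1, which encodes the stem cell marker CD133, lies between CD38 and TAPT1 and read under 5.18 in both lines, at 3.42 ± 0.11 in PC-3/Mc against 3.36 ± 0.20 in PC-3/S (0.06).

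The direction did not end at HTT. The nearest 5 unlisted genes on its telomere side were all called higher: NOP14, a ribosome biogenesis factor (1.95 ± 0.08), NOP14-AS1 (0.69), SLC75A1 (0.64), the adducin gene ADD1 (0.52) and the adaptor SH3BP2 (0.46). NOP14-AS1 was dim, with a mean of 5.61 in PC-3/Mc against 4.92 in PC-3/S. Over the whole telomere-side stretch, 25 of the 29 genes at or above the median level were called higher and 3 lower, with a median of 0.64. On the centromere side of LCORL, the next gene was SLIT2, a guidance ligand, bright and not called (0.08), and of the nearest 5 only PACRGL was called (0.52, higher).

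From LCORL to CWH43, the last gene of the short arm, 24 of 45 genes at or above the median level were called higher and 8 lower, with a median of 0.29. On the long arm it was 115 higher and 53 lower of 237, with a median of 0.22. The share called higher was thus 79.4% for the listed genes, 42.9% for the 7 unlisted genes between them, 86.2% on the telomere side of HTT, 53.3% on the rest of 4p and 48.5% on 4q, beside 38.9% of all genes of that level. Whole chromosomes had medians over such genes from -0.79 for chromosome 21 to 0.39 for chromosome 9, and chromosome 4 was at 0.34. Whether the listed stretch differs from its neighbours beyond the choice of its genes was not tested.

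**Figure D5:**
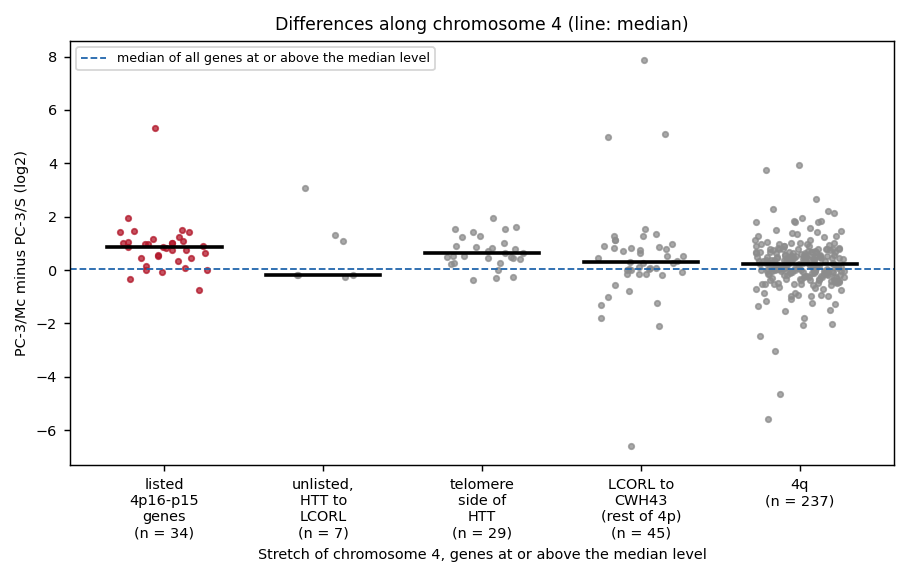
Difference PC-3/Mc minus PC-3/S (y axis, log2) of the genes of chromosome 4 at or above the median level of all genes, 1 point per gene, by stretch (x axis, number of genes in brackets); black lines are medians and the dashed line is the median of all genes of that level (0.05). The listed genes (median 0.87) and those on the telomere side of HTT (0.64) lie mostly above the dashed line, and the rest of 4p (0.29) and 4q (0.22) lie closer to it. The 7 unlisted genes between HTT and LCORL have a median of -0.17, below the dashed line, with 3 of them above 0.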

How the data were processed

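Transcripts were measured on 6 one-colour Affymetrix arrays, 3 for PC-3/Mc, then 3 for PC-3/S, grouped by title. The values are the log2 expression values that the authors deposited, 54675 probe sets per array. Their software, background correction and scaling were not given in the sources used here, and the log2 scale was read from the values, which ran from 2.59 to 14.45, and the values were used as deposited.

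Probe sets were named through GEO's platform annotation. Of those other than 62 control probe sets, 41091 had 1 symbol, 1801 several and 11721 none, and only the first named a gene. A gene with more than 1 probe set took the brightest by its mean over all arrays, which gave 19775 genes. Map order came from the RefSeq gene table of GRCh38.p14, in which 19734 genes were found and which gave order only, since no source used here names the build of the array's annotation. Promoter windows are RefSeq's on GRCh38.p14.

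Lines were compared by two-sided moderated tests from limma 3.58.1 (lmFit, then eBayes) under R 4.3.3, without covariates. P-values were adjusted by Benjamini-Hochberg over every gene, after the same code was tested on simulated data. A call is an adjusted p under 0.05. Precision is limited by the number of arrays, and the median SE over all genes was 0.092. A fold whose dimmer mean lay at or under 5.18 is a lower bound, with each dimmer array raised to 5.18.

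The members and lists were chosen with earlier results of these data known. The 4 blocks follow the map. Values on every array are given for members that differed by at least 1 without overlap and reached the median of all genes in the higher line, and for unlisted genes between HTT and LCORL by the same rule; WFS1, CPEB2 and TRMT44 were singled out after their values were seen. Some markers are not reported here.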

Additional observations from a re-analysis of the deposited data

How the results depend on the processing

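The comparison was run again under 13 other settings: with a replicate block, with centred or quantile-normalized arrays, without dim genes, with other choices of probe set, with an intensity trend, and without each array in turn. The 13 members given with values on every array kept sign and call in all 167 refitted differences. They were picked for a difference of at least 1 without overlap, so leaving out an array could not turn a sign. The replicate block, the intensity trend and the omission of dim genes left the differences themselves unchanged by construction. The count of 167 is therefore no support. LYAR and LAP3 had no refit without the _x_at and _s_at kinds. Sizes did change: averaging probe sets gave 0.86 for MSX1, 0.41 for MED28, 0.35 for TAPT1, 0.63 for QDPR and 1.44 for PPP2R2C. MSX1 was at 0.28 without the _x_at and _s_at kinds. The number of called members stayed between 31 and 36, and that of brighter members called higher at 26 or 27 apart from 22 of 28 when probe sets of the _x_at and _s_at kinds, which can match several transcripts, were dropped. Replicate numbers recur in both lines. Deviations of same-numbered arrays correlated at -0.020, -0.26 and -0.38, and those of differently numbered arrays at -0.13 to 0.34. Deviations within a line sum to 0, so with 3 arrays per line these values cannot settle whether arrays were paired. The replicate block left 33 called members and 8090 called genes; SORCS2, C1QTNF7 and BST1 lost their calls under it. These 3 and TADA2B were also the calls lost when single arrays were left out, with 33 to 36 members called. Calls were gained by EVC2, ZNF518B, HS3ST1 and FBXL5 on averaging, by TRMT44 and FBXL5 without the _x_at and _s_at kinds, and by ADRA2C, CLNK and RGS12 when 1 PC-3/Mc array was left out.

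Medians depended more on which genes or probe sets entered. Dropping the dimmest 40% of genes gave 0.59 for all members, 0.74 for MSX1 to GRPEL1 and 1.00 for NKX3-2 to LCORL. Averaging all probe sets of a gene gave 0.67 for the brighter members, 0.34 for HTT to STX18, 0.35 for NKX3-2 to LCORL (below the 0.55 of MSX1 to GRPEL1) and -0.066 for SORCS2 to HS3ST1, and NSG1 reversed to 0.026. Without the _x_at and _s_at kinds the medians were 0.38 for MSX1 to GRPEL1, 0.29 for NKX3-2 to LCORL (below the 0.45 of HTT to STX18) and -0.03 for SORCS2 to HS3ST1. Quantile normalization gave 0.37 for HTT to STX18. Centring gave 0.066 for SORCS2 to HS3ST1, whose median ran from -0.059 to 0.07 as single arrays were left out; it was below 0 without the first PC-3/Mc array and, separately, without the third PC-3/S array. The cause of these shifts was not tested. Readings near 5.18 limit what can be said of the dim members.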

Other observations

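Between LCORL and the centromere the differences were more scattered than in the listed stretch. The genes named next, picked after their values were seen, stood far from the rest. UCHL1, a ubiquitin hydrolase, differed by 7.87, LIMCH1, an actomyosin regulator, by 5.09, and RBM47, an RNA-binding protein of epithelia, by 4.99. COX7B2, a subunit gene of cytochrome oxidase, differed by -6.59. Their levels in each line are not given here, and a difference with 1 line in the range of background is not exact. On the telomere side of HTT the brighter genes called higher included the histone methyltransferase gene NSD2 (1.54), the mitotic spindle gene TACC3 (1.42), the histone mRNA binding protein gene SLBP (1.23) and the Polycomb gene PCGF3 (1.62).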
